A study of Mus musculus with 2 samples.

Results

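Lipid droplet coat and CIDE genes were followed in the RNA of adipocyte-derived microvesicles (ADMs) and of the adipocytes that released them. The 9 genes were the perilipins Plin1, Plin2, Plin3, Plin4 and Plin5, the CIDE genes Cidea and Cidec, and the genes of 2 endoplasmic reticulum proteins of droplet assembly, Fitm2 and Bscl2. They were chosen by name, and every probe carrying one of these names or its older name was kept. That gave 11 of the 41174 distinct gene probes on the array. Fitm2 and Bscl2 had 2 probes each and the other 7 genes had 1. Older names stood on the array for Plin1 (Plin), Plin2 (Adfp), Plin3 (M6prbp1) and Plin4 (S3-12), and 3 probes, 1 of Plin5 and 2 of Fitm2, carried clone names that were tied to these genes through accession or synonym.

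3T3-L1 cells, a mouse preadipocyte line that fills with lipid droplets after hormonal induction, were grown in medium with 10% fetal calf serum. Induction used IBMX, an inhibitor of cyclic nucleotide breakdown, at 0.5 mM, together with dexamethasone at 0.25 µM and insulin at 10 µg/ml. ADM RNA came from particles pelleted by ultracentrifugation from the medium of these cells at day 11, and cell RNA from the donor adipocytes, so that both RNAs share the line, the induction and its serum. From each RNA, 250 ng was labelled and both RNAs of a replicate were hybridised to 1 Agilent 2-colour array, with ADM RNA in Cy5 and cell RNA in Cy3 in replicate 1 and the dyes exchanged in replicate 2. The labels call the 2 replicates biological. They do not say whether cultures were separate in every step, so p-values speak for these samples only. In limma the spread of a probe between the 2 arrays was moderated over all tested probes. As the dyes were exchanged between replicates, that spread and each SD also hold any dye effect. Every direction rests on the dyes that the labels give and would turn if the RNAs had been exchanged on both arrays. The RNA of a pellet was measured as a whole, and the share of vesicles that hold a transcript and its amount per vesicle cannot be told apart.

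Fat cells store triglyceride in lipid droplets, which bud from the endoplasmic reticulum and are covered by a single layer of phospholipid and by coat proteins. Perilipins on that surface control the access of lipases. CIDE proteins gather where droplets touch and pass lipid from the smaller droplet to the larger, which gives white adipocytes their large droplets. Fitm2 and seipin, the product of Bscl2, act earlier, in the endoplasmic reticulum, where new droplets form.

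The promoters of 4 genes are printed because their ratios mark the top of the group (Cidec, Plin4 and Fitm2) and, for Plin5, because it is the direct neighbour of Plin4 on the chromosome and was close to the detection limit. The sequences are those of RefSeq for mouse build GRCm38.p6, all on the minus strand, from 250 bases before to 50 bases after an annotated transcript start. Capitals mark every match, on either strand, to the nuclear receptor element AGGTCA, the E-box CACGTG, the GC box GGGCGG, the CCAAT box CCAAT or the TATA core TATAA, 5 motifs that do not overlap in these windows. The windows lie at chr6:113435711-113436010 for Cidec, chr17:56109733-56110032 for Plin4, chr2:163472580-163472879 for Fitm2 and chr17:56117499-56117798 for Plin5.
Cidec: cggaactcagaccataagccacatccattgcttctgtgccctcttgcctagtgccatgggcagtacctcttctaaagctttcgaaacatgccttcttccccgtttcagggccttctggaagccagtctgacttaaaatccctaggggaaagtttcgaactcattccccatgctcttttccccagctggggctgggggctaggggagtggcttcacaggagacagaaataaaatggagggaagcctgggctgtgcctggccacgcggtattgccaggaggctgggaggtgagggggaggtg
Plin4: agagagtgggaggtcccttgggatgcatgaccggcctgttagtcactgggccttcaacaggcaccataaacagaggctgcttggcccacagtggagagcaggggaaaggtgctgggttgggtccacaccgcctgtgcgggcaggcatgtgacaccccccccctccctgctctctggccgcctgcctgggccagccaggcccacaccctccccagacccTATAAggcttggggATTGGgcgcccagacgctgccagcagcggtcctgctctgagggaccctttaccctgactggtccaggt
Fitm2: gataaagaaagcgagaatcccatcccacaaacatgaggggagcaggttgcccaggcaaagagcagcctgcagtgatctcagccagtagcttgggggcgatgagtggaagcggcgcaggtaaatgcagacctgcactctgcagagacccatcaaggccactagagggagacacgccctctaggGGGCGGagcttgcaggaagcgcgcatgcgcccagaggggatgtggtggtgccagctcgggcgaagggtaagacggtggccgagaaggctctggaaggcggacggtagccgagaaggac
Plin5: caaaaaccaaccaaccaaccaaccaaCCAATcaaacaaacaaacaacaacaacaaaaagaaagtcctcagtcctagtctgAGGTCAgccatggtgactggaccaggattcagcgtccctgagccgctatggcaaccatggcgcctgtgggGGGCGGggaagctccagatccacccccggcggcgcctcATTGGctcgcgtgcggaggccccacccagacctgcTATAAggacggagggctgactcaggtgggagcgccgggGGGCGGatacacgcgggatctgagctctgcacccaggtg
Counted from the start, a TATA core began at -32 in Plin4 and at -27 in Plin5. Plin5 also held a receptor element at -170, a CCAAT box in each orientation and 2 GC boxes, and Plin4 1 CCAAT box. Fitm2 had only the GC box at -68, and the Cidec window had none of the 5 motifs. Among all 32851 windows of the table, 24.9% held the TATA core, 37.4% the CCAAT box, 35.7% the GC box, 16.3% the receptor element and 7.15% the E-box. Cidea was left out of the scan of member windows, while the count over all windows had no such exclusion. Over the 12 windows of the other 8 member genes, the TATA core was found in 3 windows of 3 genes and the CCAAT box in 5 windows of 5 genes. The GC box was found in 6 windows of 5 genes, the receptor element in 4 windows of 3 genes and the E-box in 1, that of Plin2. These matches describe letters in a window and are not measured binding.

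Both arrays stood on the same slide and in the same scan, and no spot was saturated. The ADM channel was far brighter than the cell channel: the 99th percentile of the net intensity of gene spots was 51014 scanner units for ADM RNA against 677 for cell RNA in replicate 1, and 19224 against 2481 in replicate 2. The ratio of ADM over cell RNA also climbed with brightness, so that each scaling sets its own baseline. Spots whose local background carried the scanner's outlier mark were left out, ratios were normalised by loess within each array and limma tested the mean of both arrays over 18117 probes well above background. Of these, 2972 passed an adjusted p of 0.05, 1001 higher and 1971 lower in ADM RNA. The number of arrays, 2, limits the precision.

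Nearly all of the droplet genes were readily detected in ADM RNA. Of the 11 probes, 9 were well above background in ADM RNA on both arrays and 7 were so in cell RNA, against 45.8% and 23.8% of all probes. By the loess fit, 7 probes of 6 genes were tested and 3 passed: Fitm2 was higher in ADM RNA and Plin1 and Cidea were lower, with 16.4% of all tested probes called, 5.53% higher and 10.9% lower. The other 4 did not pass. The median log2 ratio of the 7 was -0.37, beside 0.07 for all probes tested. A further 4 probes had no test: those of Cidec and Plin4 because of marked local backgrounds, and those of Plin5 and the second of Bscl2 because they were too dim.

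Loess did not centre the brightest probes on 0: around the signals of Plin1, Plin2, Plin4 and Cidec the median loess ratio was between -1.12 and -1.65. A second baseline was therefore added after seeing the data: the median ratio of the tested probes within 0.5 log2 units of the same mean signal, subtracted on each array, with each marked local background replaced by the channel's median. These probes were picked on each array by its own signal, and ratios were taken without loess. The probe numbers and loess medians given below for similar signal refer instead to signal averaged over both arrays. Under the second baseline 9 probes were tested and 7 passed, 5 higher (Cidec, Plin4, Fitm2, Bscl2 and Plin2) and 2 lower (Plin3 and Cidea). Over all 19807 tested probes 29.8% were called, 12.9% higher and 16.9% lower. The Bscl2 probe was not well above background in cell RNA of replicate 1, so it entered the test through ADM RNA alone. Fitm2 and Cidea passed in the same direction under both baselines. Loess with the marked backgrounds replaced called the same 3 of now 9 tested probes, with 19.6% of all probes called, 6.99% higher and 12.6% lower. With each array only centred on its median, 5 of the 7 passed, or 7 of the 9 with replaced backgrounds, where 72.4% of all probes did so in either case, and a positive value is there no sign of standing above other probes. By loess, 1 of the 7 differed by at least 2-fold on both arrays in the same direction, Fitm2, against 7.59% of all probes. Plin1 passed as lower under loess, did not pass against probes of similar signal and passed as higher with median centring.

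**Figure D1:**
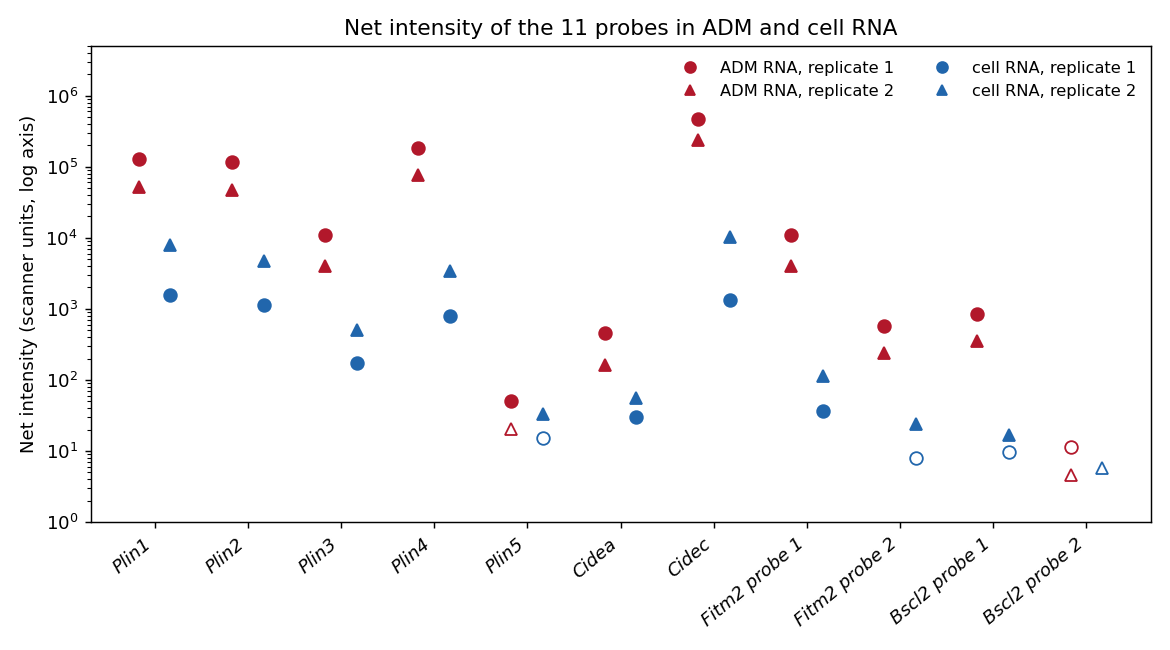
Net intensity, the mean of a spot minus its local background, in scanner units on a log axis for each of the 11 probes, with ADM RNA in red at the left and cell RNA in blue at the right of each name. Circles are replicate 1, triangles replicate 2, and open symbols were not well above background. Cidec, Plin4, Plin1 and Plin2 lie at the top in ADM RNA, Plin5 and the second Bscl2 probe at the bottom; a negative cell value of that Bscl2 probe is not drawn.

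Plin1, the perilipin that guards the droplets of mature fat cells, was among the bright transcripts of both RNAs. Its probe (A_51_P244497, mm7 chr7:75590467-75590526) gave net intensities of 128314 and 52148 in ADM RNA, against 1552 and 7928 in cell RNA in replicates 1 and 2. The ADM values lay above the cell values on both arrays, by 82.7-fold and 6.58-fold before any scaling. Loess turned these into log2 ratios of -1.66 and -1.0, a mean of -1.33 ± 0.47 (SD, n = 2), or 2.51-fold lower in ADM RNA, with an adjusted p of 0.0308 in limma. That value has to be read beside its neighbours in signal. With the marked backgrounds replaced, loess put Plin1 at -1.22 and the median of the 104 tested probes within 0.5 log2 units of its signal at -1.34. Against probes of similar signal on each array Plin1 stood at 0.18 ± 0.12 (SD, n = 2) and did not pass (limma, adjusted p = 0.263). The scanner's own processed ratio was -0.02 (limma, adjusted p = 0.947). Plin1 was thus lower than the loess curve and not detectably different from probes as bright as itself.

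Plin2, which coats droplets in most cell types, was nearly as bright as Plin1. Net intensities of its probe (A_51_P258150, mm7 chr4:86060498-86060557) were 116532 and 47715 in ADM RNA, against 1148 and 4656 in cell RNA. Its loess ratios of -1.21 and -0.30 averaged -0.76 ± 0.65 (SD, n = 2) and did not pass (limma, adjusted p = 0.125). The 146 probes of similar signal had a loess median of -1.12. Relative to probes of similar signal on each array Plin2 was 0.41 higher on the first and 0.42 higher on the second. The mean of 0.42 ± 0.01 (SD, n = 2) passed (limma, adjusted p = 0.0442).

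Plin3, a perilipin that moves between cytosol and droplet surface, had a modest ratio. Its probe (A_51_P223404, mm7 chr17:54437255-54437314) had 10790 and 3985 units in ADM RNA, against 175 and 511 in cell RNA. Both baselines placed it slightly on the cell side. Loess gave -0.37 ± 0.10 (SD, n = 2), with an adjusted p of 0.110 in limma. Against probes of similar signal the mean was -0.42 ± 0.03 (SD, n = 2), with an adjusted p of 0.0427 in limma. Only the second passed.

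Plin4, first described as S3-12 and found on small, newly formed droplets of fat cells, had the highest ratio among the perilipins. Its probe (A_51_P495780, mm7 chr17:54259939-54259998) gave 180883 and 77054 units in ADM RNA, against 800 and 3416 in cell RNA, or 226-fold and 22.6-fold before scaling. Its local background on the first array, 54 units in the ADM channel and 26 in the cell channel, carried the outlier mark in at least 1 channel. The loess fit therefore held only the value of 0.81 of the second array. With that background replaced, loess gave 0.09 and 0.81, a mean of 0.45 ± 0.51 (SD, n = 2; limma, adjusted p = 0.204). The 137 probes of similar signal had a loess median of -1.27. Above probes of similar signal on each array Plin4 stood by 1.56 and 1.70, a mean of 1.63 ± 0.10 (SD, n = 2), and passed (limma, adjusted p = 0.00197).

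Plin5, the perilipin of tissues that burn fat, such as heart, was close to the detection limit. Its probe (A_51_P262757, mm7 chr17:54269931-54269990) had 50.5 and 20.1 units in ADM RNA, against 15.5 and 33.4 in cell RNA. It was well above background only in the Cy5 channel of each array, which held ADM RNA in replicate 1 and cell RNA in replicate 2, so the groups overlapped and it was not tested. Its probe lies 9932 bases from that of Plin4, and GRCm38.p6 has 0 genes between the 2, whose promoters are printed above.

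The CIDE genes lay far apart. Cidec, or FSP27, which white adipocytes need for large droplets, was the brightest of all 11 probes in ADM RNA. Its probe (A_51_P490456, mm7 chr6:113585627-113585686) gave 462588 and 236553 units there, against 1337 and 10189 in cell RNA. The ratio before scaling was 346-fold and 23.2-fold, at the 99.6th and 95.1th percentiles of all tested probes. Marked local backgrounds took it out of the loess fit on both arrays, where the ADM channel had backgrounds of 48 and 33 units and the cell channel 28 and 37. A mark in either channel sufficed. With these replaced, loess gave 0.18 and 0.65, a mean of 0.41 ± 0.33 (SD, n = 2; limma, adjusted p = 0.149). Only 31 tested probes were of similar signal, with a loess median of -1.65. Cidec exceeded probes of similar signal on each array by 2.59 and 2.06, a mean of 2.32 ± 0.37 (SD, n = 2), and passed (limma, adjusted p = 0.00204).

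Cidea, in mice a protein mainly of brown and beige adipocytes, was dim in both RNAs. Its probe (A_51_P199168) had 453 and 164 units in ADM RNA, against 30.1 and 55.3 in cell RNA, all well above background. Although its net intensity was higher in ADM RNA on both arrays, the excess of 15.1-fold and 2.97-fold was below that of most probes, at the 27.2th and 19.9th percentiles. Loess gave -0.63 and -0.79, a mean of -0.71 ± 0.12 (SD, n = 2), or 1.64-fold lower in ADM RNA (limma, adjusted p = 0.0350). The probes of similar signal gave much the same, -0.62 ± 0.09 (SD, n = 2; limma, adjusted p = 0.0178). With each array only centred on its median the value was -0.56 and did not pass (limma, adjusted p = 0.150). On the same arrays the log2 ratio of Cidec was above that of Cidea by 4.52 in replicate 1 and 2.97 in replicate 2, but the signals of these genes differ widely, and ratios climbed with signal.

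**Figure D2:**
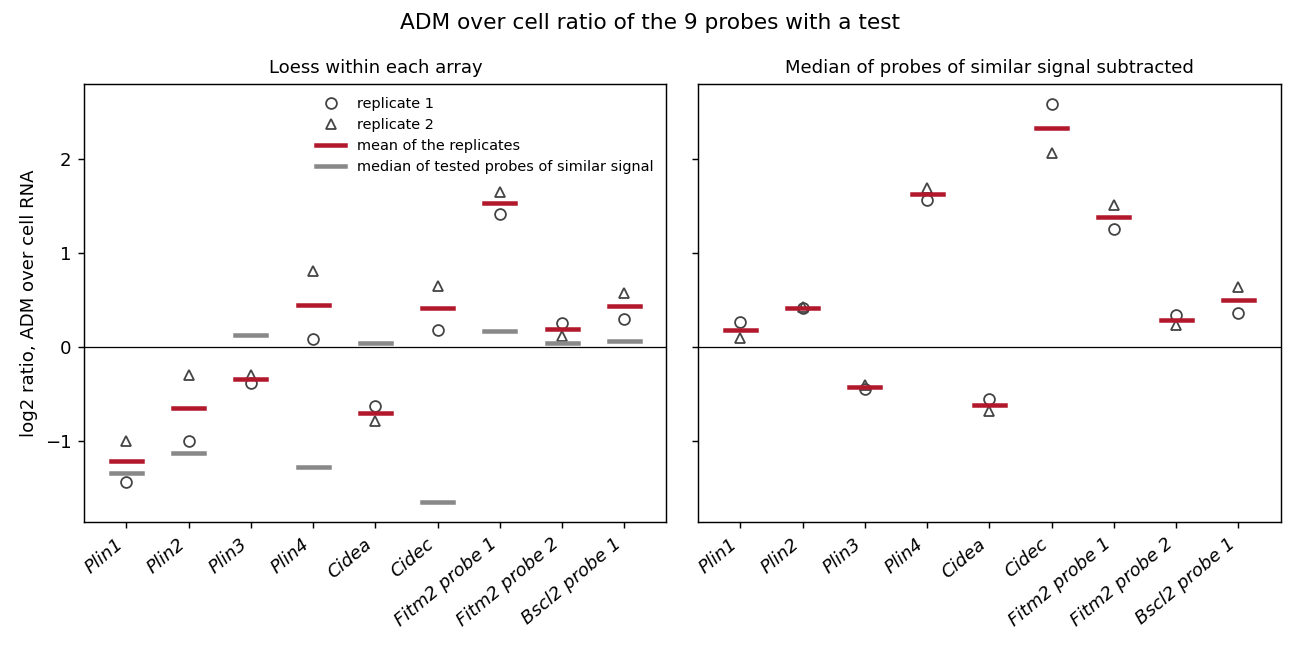
Log2 ratio of ADM over cell RNA for the 9 probes with a test, with loess (left) and with the median of tested probes of similar signal subtracted (right), both with marked local backgrounds replaced. Circles and triangles are replicates 1 and 2, red bars their means, and grey bars at the left the median loess ratio of the tested probes of similar signal. Plin1 lies beside its grey bar, while Plin4, Cidec and the first Fitm2 probe lie well above theirs.

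Fitm2 passed as higher under both baselines, by its brighter probe only. It encodes a membrane protein of the endoplasmic reticulum that binds triglyceride and helps droplets to bud. The first of its probes (A_51_P476829, mm7 chr2:163207466-163207525) had 10888 and 4055 units in ADM RNA, against 36.2 and 112.6 in cell RNA. Loess gave 1.39 and 1.65, a mean of 1.52 ± 0.18 (SD, n = 2), or 2.87-fold higher in ADM RNA (limma, adjusted p = 0.0134). Against probes of similar signal the mean was 1.38 ± 0.18 (SD, n = 2) and passed (limma, adjusted p = 0.00363). The value was positive in all 16 settings tried and passed in 15. It missed only when spots with marked local backgrounds were kept as they were, at 0.63 (limma, adjusted p = 0.547). In that setting 0 of all probes passed in limma and 677 had an unadjusted p under 0.05. Several settings changed only the filter or the eBayes step and left the ratio at 1.52, so the 16 are not independent. Cidec and Plin4 had a tested value in only 4 settings, so counts of settings are not compared between genes.

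The second Fitm2 probe (A_52_P172441, mm7 chr2:163209598-163209657) lies 2072 bases away and was dimmer. It had 572 and 236 units in ADM RNA, against 7.92 and 24.3 in cell RNA, of which only the second was well above background. Its loess mean was 0.19 ± 0.10 (SD, n = 2) and did not pass (limma, adjusted p = 0.305). Against probes of similar signal it was 0.28 ± 0.08 (SD, n = 2) and did not pass either (limma, adjusted p = 0.108). Both probes had positive values on both arrays, and only the first passed under these baselines; the difference between them was not tested.

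Bscl2 encodes seipin, which sits where droplets join the endoplasmic reticulum and whose loss in people causes a congenital lack of fat tissue. Its first probe (A_51_P196526, mm7 chr19:8526645-8526704) had 856 and 351 units in ADM RNA, against 9.80 and 16.7 in cell RNA, where only the second was well above background. Loess gave 0.30 and 0.58, a mean of 0.44 ± 0.19 (SD, n = 2) that did not pass (limma, adjusted p = 0.0976). Relative to probes of similar signal it was 0.50 ± 0.20 (SD, n = 2) and passed (limma, adjusted p = 0.0420). It entered the test through ADM RNA alone, the RNA in which it was then called higher. The second probe (A_52_P256584, mm7 chr19:8519835-8519894), 6750 bases away, was not well above background in either RNA on either array.

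**Figure D3:**
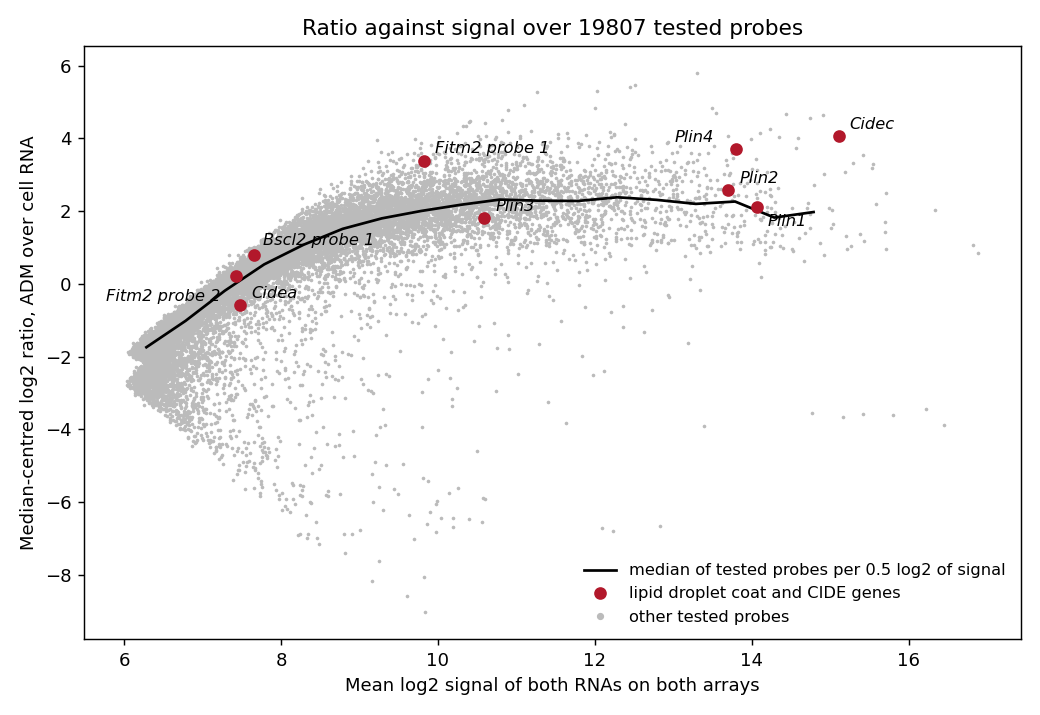
Log2 ratio of ADM over cell RNA, centred on the median of each array, against the mean log2 signal for the 19807 tested probes (grey), with the median in steps of 0.5 (black line) and the 9 tested probes of the droplet genes (red). The median climbs from below 0 among dim probes to about 2 among bright ones, and Cidec, Plin4 and the first Fitm2 probe lie above it.

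A single scale factor for an array cancels in the difference between the net ratios of 2 probes on it, while the trend with signal and the background correction do not. Such differences were taken among the 7 probes that were well above background in both RNAs on both arrays. Of their 21 pairs, 19 had the same sign on both arrays. The pairs share these 7 probes and are not independent, and the trend with signal enters their signs. The share of like signs among pairs of all probes was not counted, so the 19 are a description only. The order from the highest ratio down began with Cidec, Fitm2 and Plin4 on the first array and with Fitm2, Cidec and Plin4 on the second, and ended with Cidea on both. Among the 4 bright genes, Plin4 exceeded Plin2 by 1.15 ± 0.01 and Plin1 by 1.62 ± 0.23 in log2 ratio (SD, n = 2 each). Cidec exceeded Plin1 by 1.94 ± 0.17 and Plin2 by 1.47 ± 0.42 (SD, n = 2 each). Plin2 exceeded Plin1 by 0.47 ± 0.24, and Cidec exceeded Plin4 by 0.33 ± 0.40, a gap smaller than the spread (SD, n = 2 each). Fitm2 and Cidec also did not separate, with differences of opposite sign on the 2 arrays. Fitm2 exceeded Plin3 by 2.25 ± 0.06, or 4.75-fold (SD, n = 2).

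Over the 4 normalised channel values (both RNAs on both arrays), the genes nearest to Plin1 among 12855 were H2aj, a histone gene, at a Euclidean distance of 0.249 log2 units, Eef1a1, a translation elongation factor, at 0.303, and the array's unnamed entry NAP050809-1 at 0.338. Their loess ratios were -1.10, -1.57 and -1.38, which enter the distance and are a description only. Nearest to Fitm2 were Col5a3, a collagen chain, at 0.167, Nptn, a cell adhesion protein, at 0.182, and Sdha, a subunit of mitochondrial succinate dehydrogenase, at 0.208, with loess ratios of 1.56, 1.43 and 1.43.

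Other proteins of the droplet surface and of triglyceride turnover formed a list of 34 genes, of which 32 were on the array with 69 probes. By loess, 48 probes of 28 genes were tested, of which 9 passed as higher in ADM RNA, 3 passed as lower and 36 missed the threshold; their median was 0.37 beside 0.07 for all probes tested. Against probes of similar signal, 22 of 54 passed as higher, 3 passed as lower and 29 missed the threshold. Their median was 0.35 beside 0.07. Over all tested probes 5.53% were called higher and 10.9% lower by loess, and 12.9% higher and 16.9% lower against probes of similar signal. By their brightest tested probe, 5 genes of the list were higher in ADM RNA by loess. These were Pnpla3, a lipase of droplets, at 1.39 ± 0.26, Nsdhl, an enzyme of cholesterol synthesis, at 1.11 ± 0.07, and Acsl3, which activates fatty acids on new droplets, at 1.06 ± 0.17. The others were Mettl7a1 at 0.91 ± 0.22 and Hsd17b11, a droplet-bound dehydrogenase, at 0.73 ± 0.10 (SD, n = 2 for each of the 5), with limma adjusted p between 0.0177 and 0.0328. Acsl3 was not well above background in cell RNA of replicate 1, so it entered the test through ADM RNA alone. Lower were Cyb5r3, the cytochrome b5 reductase, at -1.37 ± 0.42 and Pnpla2, the lipase ATGL that opens fat breakdown, at -1.17 ± 0.47 (SD, n = 2 each; limma, adjusted p = 0.0265 and 0.0385).

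Pnpla2 was somewhat dimmer than Plin1 and shared its dependence on the baseline. Its probe had 84646 and 36993 units in ADM RNA, against 1124 and 5285 in cell RNA, and stood at -0.10 ± 0.04 relative to probes of similar signal (SD, n = 2; limma, adjusted p = 0.507), where Cyb5r3 was still lower, at -1.12 ± 0.22 (SD, n = 2; limma, adjusted p = 0.0060). The second Pnpla2 probe was at 0.41 by loess and did not pass (limma, adjusted p = 0.129). Against probes of similar signal it passed as higher, at 0.72 (limma, adjusted p = 0.0109). A dimmer Cyb5r3 probe was at -0.21 by loess and -0.18 against probes of similar signal and passed in neither (limma, adjusted p = 0.252 and 0.236). A dimmer Mettl7a1 probe went against the brighter one, at -0.95 by loess. Cideb, the CIDE gene of liver and gut, and Fitm1, the muscle relative of Fitm2, were too dim for a test.

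**Figure D4:**
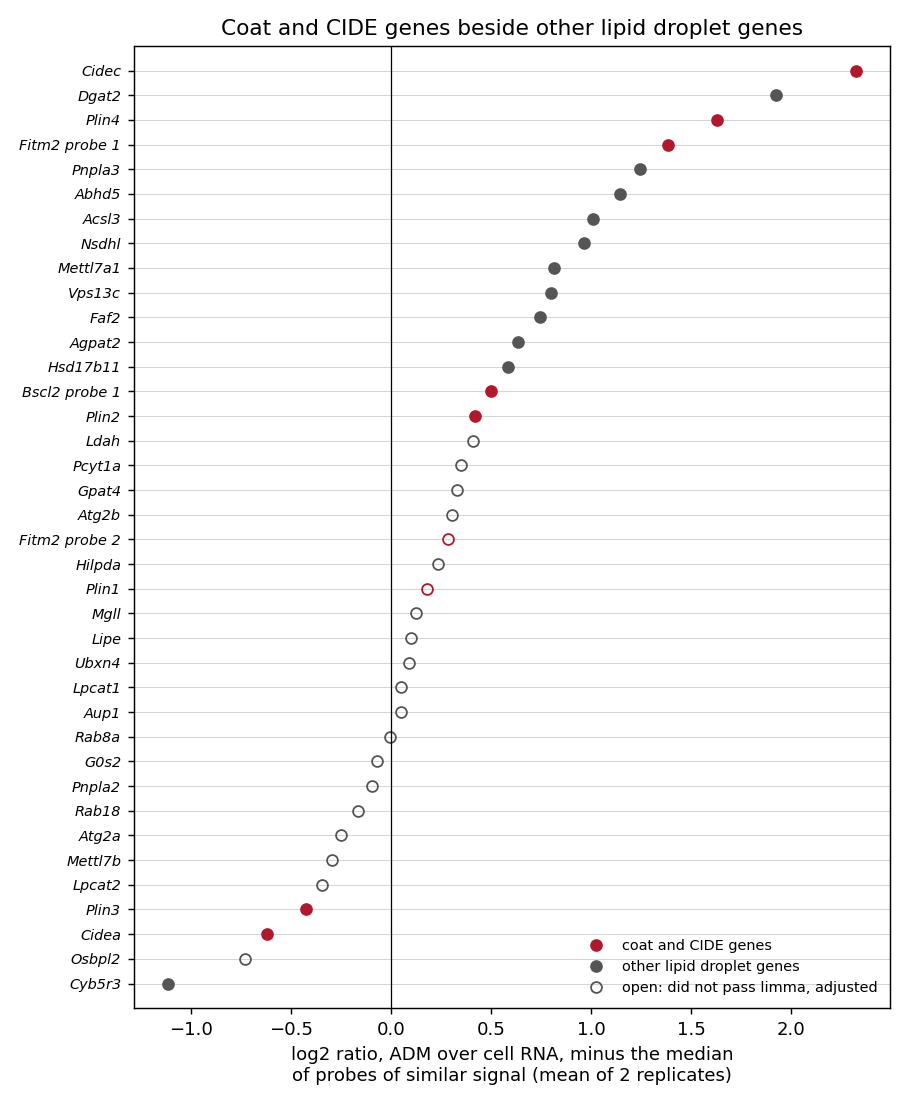
Log2 ratio of ADM over cell RNA minus the median of tested probes of similar signal, as the mean of both replicates. Red points are the 9 tested probes of coat and CIDE genes, dark grey points 1 tested probe for each of 29 other lipid droplet genes. The brightest tested probe is drawn, except for Atg2a. Its drawn probe, with a marked local background, stood at -0.25 (limma, adjusted p = 0.133). A brighter Atg2a probe, not drawn, stood at 0.59 and passed (limma, adjusted p = 0.0241). Filled points passed limma at an adjusted p of 0.05 and open points did not. Cidec at 2.32, Plin4 at 1.63 and the first Fitm2 probe at 1.38 lie among the highest and Plin3 and Cidea among the lowest. Dgat2, of the other droplet genes, was drawn at 1.92 (limma, adjusted p = 0.00171), above Plin4 and Fitm2.

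Markers of the labelled cell type were detected. All 10 adipocyte markers were well above background in ADM RNA on both arrays and 9 were so in cell RNA. By loess 2 of their 11 tested probes passed as higher and 3 as lower, where 5.53% and 10.9% of all probes were so called. Against probes of similar signal 9 of 16 passed as higher and 1 as lower, where 12.9% and 16.9% of all probes were so called. There Adipoq stood at 2.75 and Cfd at 2.79, above Cidec at 2.32, while Lpl probes stood at 2.78 and -0.93. Summed net intensities of the adipocyte markers were 2042580 and 968786 units in ADM RNA, against 9614 and 61675 in cell RNA. Of 8 brown or beige markers, 4 were above background in ADM RNA and 3 in cell RNA, and Ucp1, Dio2, Prdm16 and Elovl3 were not among them. Preadipocyte and fibroblast markers, 10 genes, were all above background in ADM RNA and 8 were so in cell RNA, and 8 of their 19 tested probes passed as higher and 0 as lower by loess, where 5.53% of all probes were called higher, with sums of 254718 and 96658 units in ADM RNA, against 846 and 2987 in cell RNA. Of 7 macrophage markers, 3 were above background in ADM RNA and 2 in cell RNA, and Adgre1, Itgam and Ptprc were not above background in any channel and Csf1r only in cell RNA of replicate 2, with sums of 4737 and 1873 units in ADM RNA, against 181 and 343 in cell RNA. The part of these other markers in the droplet genes' ratios was not tested.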

How the data were processed

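RNA of ADMs and of donor 3T3-L1 adipocytes was measured on 2 Agilent 2-colour arrays. Mean spot and median local background intensities were deposited as read by Feature Extraction 10.5.1.1, without normalization, per the file headers, with probe positions in build mm7. The deposited processed intensities, and the log10 ratio made from them, were background-subtracted and dye-normalized by that software, per the file headers. In a deposited series table of log10 ratios, 100% of 45018 spots matched the scanner's ratio of replicate 1, and 100% the sign-turned ratio of replicate 2, within 0.0001; both columns have a median of 0, and the table was not used for a test. Deposited spot flags mark outliers and spots well above background.

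Outlier spots and spots with an outlying local background were left out. After normexp background correction (offset 50) came loess, and ratios were turned to ADM over cell RNA, and spots of a probe were averaged. Probes were tested where at least 50% of their spots were so flagged for 1 RNA on both arrays, with limma 3.58.1 in R 4.3.3 (lmFit, eBayes, Benjamini-Hochberg at 0.05, 1 residual degree of freedom); the code was tested on simulated data. Of 41174 probes, 22951 were named by accession, 6659 by symbol and 3109 by synonym from a RefSeq table of GRCm38.p6, and 8455 kept the file's name. Every probe of the 9 genes is named, of the other droplet list the genes whose brightest probe passed (at most 10), and the 3 genes nearest to Plin1 and to Fitm2. Second probes of Pnpla2, Cyb5r3 and Mettl7a1, the Atg2a probes, Dgat2, Cideb and Fitm1, and the values of Adipoq, Cfd and Lpl, were added after their values were seen. Members, lists and the treatment of outlying backgrounds were chosen with earlier results of these data known. The alternatives with replaced backgrounds, quantile normalization and the median of similar signal were chosen after seeing the data. Alternatives also covered median centring, processed and spike-in scaling, the offset, the filter, scaling between arrays, other eBayes settings and leaving out each replicate. Exon and UTR positions of the probes were not used here.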

Additional observations from a re-analysis of the deposited data

How the results depend on the processing

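Loess called 2972 probes, while 13115 were called with median centring (14343 with replaced backgrounds too), 8372 with processed signals, 4930 with an offset of 10, 4823 with scaling between arrays, 10454 with quantile normalization, 5904 against probes of similar signal and 0 in limma with marked local backgrounds kept (677 at an unadjusted p under 0.05). The share of calls higher in ADM RNA was 33.7%, against 49.8% with median centring, 69.3% with processed signals, 71.0% with quantile normalization and 99.2% with spike-in scaling, where the median of all tested probes was 3.51 in place of 0.07 (0.69 with processed signals, 0.37 with quantile normalization). Median centring left the prior degrees of freedom infinite, so its p-values do not reflect a probe's own spread.

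Of 7 tested probes of the droplet genes, 3 were called by loess, 5 with median centring and 5 with quantile normalization. Of 9 tested, 7 were called with median centring and replaced backgrounds, 7 against probes of similar signal and 0 with marked backgrounds kept. Over all tested probes the share called was 16.4% by loess, 72.4% with either median centring and 29.8% against probes of similar signal. Quantile normalization called 10454 of 18117. The counts of the droplet genes have to be read beside these shares. Of 48 tested probes of the other droplet list, 12 were called by loess, 42 with median centring and 33 with quantile normalization. Processed signals called 27 of the 48, an offset of 10 called 20 and scaling between arrays 20. These settings called 8372, 4930 and 4823 of all 18117 probes. Of 54 tested, 46 were called with median centring and replaced backgrounds, 25 against probes of similar signal and 0 with marked backgrounds kept. With 1 probe per gene, 7 of 28 were called, against 2469 of 12861 over all genes. Without 1 replicate no test is possible; at least 2-fold were 1554 to 2532 probes (1375 on both arrays), 1 to 3 droplet gene probes (1) and 5 to 10 probes of the list (4).

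Direction turned for Plin1 with median centring (2.15; 2.12 with replaced backgrounds), spike-in scaling (5.66), quantile normalization (0.32) and probes of similar signal (0.18). It turned for Plin2 with median centring (2.61; 2.58), processed signals (0.39), spike-in scaling (6.12), quantile normalization (0.73) and probes of similar signal (0.42). It turned for Plin3 with median centring (1.84; 1.81), spike-in scaling (5.35) and marked backgrounds kept (0.063), for Cidea with spike-in scaling (2.95), and with marked backgrounds kept for Plin4 (-0.28) and Cidec (-1.15). Plin1 kept its direction but not its call with an offset of 10 (limma, adjusted p = 0.0726), trended eBayes (0.233), processed signals (0.947) and marked backgrounds kept (0.137). The cause was not tested. Of the droplet genes' values under tested alternatives, 68 kept direction and side of the threshold and 18 turned direction. A further 14 kept direction and gained a call, and 8 kept direction and lost it. Each ratio is already the paired difference of both RNAs of a replicate on 1 array. With 2 arrays, low signal limits Plin5, Bscl2 and the second Fitm2 probe.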
